A study of Mus musculus with 6 samples.

Results

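The Endoderm cells of mouse stembryos were examined as the cells that carry the cluster name Endoderm in the deposited cell annotation, 205 of 26968 cells. Stembryos are elongating aggregates of embryonic stem cells, here wild type, that had been given a pulse of the Wnt agonist Chiron and form tissues of the embryonic trunk. The 6 libraries came from the posterior part (7887 cells) and the anterior part (3944 cells) of 1 dissected pool at 120 h, from whole stembryos at 120 h (4867 and 2683 cells) and from whole stembryos at 96 h (4938 and 2649 cells). Each library pooled many stembryos of 1 stem cell line. At 120 h the elongating stembryos alone had been kept, whereas collection at 96 h was not selective. The annotation puts both parts in batch 2, replicate 1 of both times in batch 1 and replicate 2 of both times in batch 4. Of the 205 Endoderm cells, 183 (89.3%) lay in the posterior library, so most values below come from that library. The other 22 were 1 cell of the anterior part, 1 and 7 cells of replicates 1 and 2 at 120 h, and 2 and 11 cells of replicates 1 and 2 at 96 h.

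Definitive endoderm leaves the primitive streak at gastrulation and forms the epithelium of the gut tube. The transcription factors Foxa2 and Sox17 take part in its specification, and its cells carry the simple keratins Krt8 and Krt18 and claudins of the tight junction. Along the tube, Sox2 marks the foregut and Cdx2 the midgut and hindgut, and the gut epithelium releases Sonic and Indian hedgehog to the mesenchyme around it.

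In the posterior library the Endoderm cells held 2655447 unique molecular identifiers (UMIs, single counted transcripts), which were 2.28% of the UMIs of that library. Counts were summed over the 183 Endoderm cells and over the 7704 other cells of the library and are given as CPM, the count scaled to a total of 1000000 UMIs per group. The clusters had been made from the transcripts of these same cells, and there was 1 library. Endoderm cells against other cells is therefore a description with no test, and intervals (95%, exact) cover counting error only. A gene is called higher or lower at a 4-fold ratio with at least 20 CPM in the higher group. Median depth was 12841 UMIs in Endoderm cells and 13660.5 in other cells, with 3708 and 3720 genes detected and 1.93% and 1.85% mitochondrial UMIs. Across the 6 libraries 150 cells shared a barcode with a cell of another library, and 0 of them were Endoderm cells.

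Promoter sequences are shown for 4 genes with large ratios of Endoderm over other cells: Nepn, which encodes the secreted protein nephrocan, Cpn1, the catalytic subunit of carboxypeptidase N, Gpx2, a glutathione peroxidase of gut epithelium, and Upk3a, a uroplakin. Each window runs from 250 bases before to 50 bases after the annotated start (RefSeq, build GRCm38.p6) and is written on the strand of the gene. Capitals mark matches to 4 short motifs on either strand. The motifs were the forkhead (FOX) letters TGTTTAC, the forkhead variant spelled TGTTTGC, the letters TTTATGG of the caudal factors (CDX), and the letters AGATAA of the zinc finger factors Gata4 and Gata6. No matches overlapped. The windows are Nepn chr10:52391358-52391657 (+ strand), Cpn1 chr19:43986471-43986770 (- strand), Gpx2 chr12:76795505-76795804 (- strand) and Upk3a chr15:85016891-85017190 (+ strand).
Nepn: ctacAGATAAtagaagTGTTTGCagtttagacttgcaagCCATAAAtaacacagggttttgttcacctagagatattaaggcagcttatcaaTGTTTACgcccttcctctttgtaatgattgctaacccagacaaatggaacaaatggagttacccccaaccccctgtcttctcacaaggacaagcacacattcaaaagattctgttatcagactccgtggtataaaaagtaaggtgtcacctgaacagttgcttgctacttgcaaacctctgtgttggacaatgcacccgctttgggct
Cpn1: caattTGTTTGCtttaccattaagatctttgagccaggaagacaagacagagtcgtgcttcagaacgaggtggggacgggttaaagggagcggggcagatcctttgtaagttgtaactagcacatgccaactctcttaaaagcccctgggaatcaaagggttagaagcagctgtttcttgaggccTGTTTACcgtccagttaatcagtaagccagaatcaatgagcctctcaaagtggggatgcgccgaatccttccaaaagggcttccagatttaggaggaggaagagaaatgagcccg
Gpx2: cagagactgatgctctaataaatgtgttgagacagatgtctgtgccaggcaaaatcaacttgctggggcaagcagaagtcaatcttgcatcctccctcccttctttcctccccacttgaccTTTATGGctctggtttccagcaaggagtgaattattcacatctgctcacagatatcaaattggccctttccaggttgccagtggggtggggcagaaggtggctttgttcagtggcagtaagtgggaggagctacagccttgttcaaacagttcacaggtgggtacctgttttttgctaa
Upk3a: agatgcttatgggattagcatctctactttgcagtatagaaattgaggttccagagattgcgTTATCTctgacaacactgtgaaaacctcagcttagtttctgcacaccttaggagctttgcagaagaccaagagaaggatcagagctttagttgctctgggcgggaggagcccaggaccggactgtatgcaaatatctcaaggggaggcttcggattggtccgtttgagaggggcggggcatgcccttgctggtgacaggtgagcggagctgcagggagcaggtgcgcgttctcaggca

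Nepn held 4 matches, of which TGTTTGC began 234 and TGTTTAC 158 bases before the start. The GENCODE gene model of Nepn begins further upstream, at chr10:52388972, so these distances hold for the RefSeq start alone. Cpn1 held 2, TGTTTGC at 245 and TGTTTAC at 65 bases before the start. Gpx2 held TTTATGG 129 bases and Upk3a the reverse of AGATAA 188 bases before the start. Of the 20 genes with the largest ratios, 17 had a window, 20 windows in all. TGTTTAC was in 2 of these 20 windows and in 3.65% of all 32851 windows of that length, and TGTTTGC in 2 and in 5.07%. TTTATGG was in 4 of the 20 (Epcam, Gpx2, Myl3, Nepn) and in 2.75% of all, and AGATAA in 4 (Foxa2, Krt8, Nepn, Upk3a) and in 11.2%. A match describes the letters of a window and shows no binding.

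The share of Endoderm cells differed between the parts of the dissected pool. It was 2.32% in the posterior part (183 of 7887 cells, Clopper-Pearson interval 2.00% to 2.68%) and 0.0254% in the anterior part (1 of 3944 cells, 0.000642% to 0.141%). These are 1 library each. The share was 0.0205% and 0.261% in whole stembryos at 120 h (1 of 4867 and 7 of 2683 cells) and 0.0405% and 0.415% in whole stembryos at 96 h (2 of 4938 and 11 of 2649 cells). Both replicates numbered 2 lay above both replicates numbered 1, so the libraries of batch 4 held the higher shares at both times. Batch 4 was of V3.1 chemistry and batch 1 of V3 chemistry. The median depth of other cells at 120 h and 96 h was 9660 and 8725.5 UMIs in batch 4. In batch 1 it was 16374.5 and 22813 UMIs. Batch, chemistry and depth cannot be told apart here. With the parts summed to 1 pool at 1.56%, the share averaged 0.612 ± 0.825% at 120 h (SD, n = 3) and 0.228 ± 0.265% at 96 h (SD, n = 2). The 2 times overlapped, and the difference of 0.384 percentage points had p = 1 by an exact two-sided permutation test over samples, whose smallest p is 0.2. The direction rested on the dissected pool. Without it the difference was -0.0872 percentage points (exact permutation p = 0.667). Within batch 1 and within batch 4 the share was lower at 120 h than at 96 h.

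The 9 genes that mark the cluster were all higher in Endoderm cells of the posterior library. The list was chosen on these samples and is not independent evidence. Upk3a, a membrane protein of urothelium, had 186 CPM in Endoderm cells (494 UMIs in 111 of 183 cells) and 0.132 CPM in other cells (15 UMIs in 15 of 7704 cells), a ratio of 1412 (848 to 2543). Krt19, an epithelial keratin, had 162 and 0.290 CPM, a ratio of 559 (392 to 822). Sox17, a transcription factor of definitive endoderm, had 152 CPM in Endoderm cells and 0.290 CPM in other cells, a ratio of 525 (368 to 773).

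Cldn7, a tight junction claudin, had 190 and 0.395 CPM (ratio 480), and Gpx2 had 217 and 0.588 CPM (ratio 369). Cpn1 had 123 CPM in Endoderm cells and 0.738 CPM in other cells, a ratio of 166. Krt18 and Krt8, the keratin pair of simple epithelia, had ratios of 135 and 113, at 262 and 342 CPM in Endoderm cells. Each of these 8 genes thus had at most 3.03 CPM over all other cells summed. Single clusters held more, such as 16.1 CPM of Krt8 in the 45 NMPs A cells and 13.1 CPM of Krt18 in the 28 Pluripotent/PGC cells. Trh, which encodes thyrotropin-releasing hormone, was the most abundant marker, at 889 CPM in Endoderm cells (2362 UMIs) and 13.3 CPM in other cells (1520 UMIs), and had the lowest ratio of the 9, 66.6 (62.5 to 71.1).

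The Trh transcripts outside the cluster lay mostly in 3 clusters. Trh had 699 CPM in the 28 Pluripotent/PGC cells, 45.4 CPM in Spinal cord B and 8.31 CPM in Spinal cord A, and 0 to 1.79 CPM in the other 6 clusters of at least 28 cells. Gpx2, at 85.4 CPM, and Cldn7, at 29.5 CPM, were also detected in the Pluripotent/PGC cells, while Upk3a, Sox17, Krt7, Nepn and Foxa2 had 0 UMIs there. With each other cluster given equal weight, the log2 ratio was 3.65 in place of 6.06 for Trh, 4.79 in place of 8.53 for Gpx2 and 6.09 in place of 8.91 for Cldn7.

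**Figure D1:**
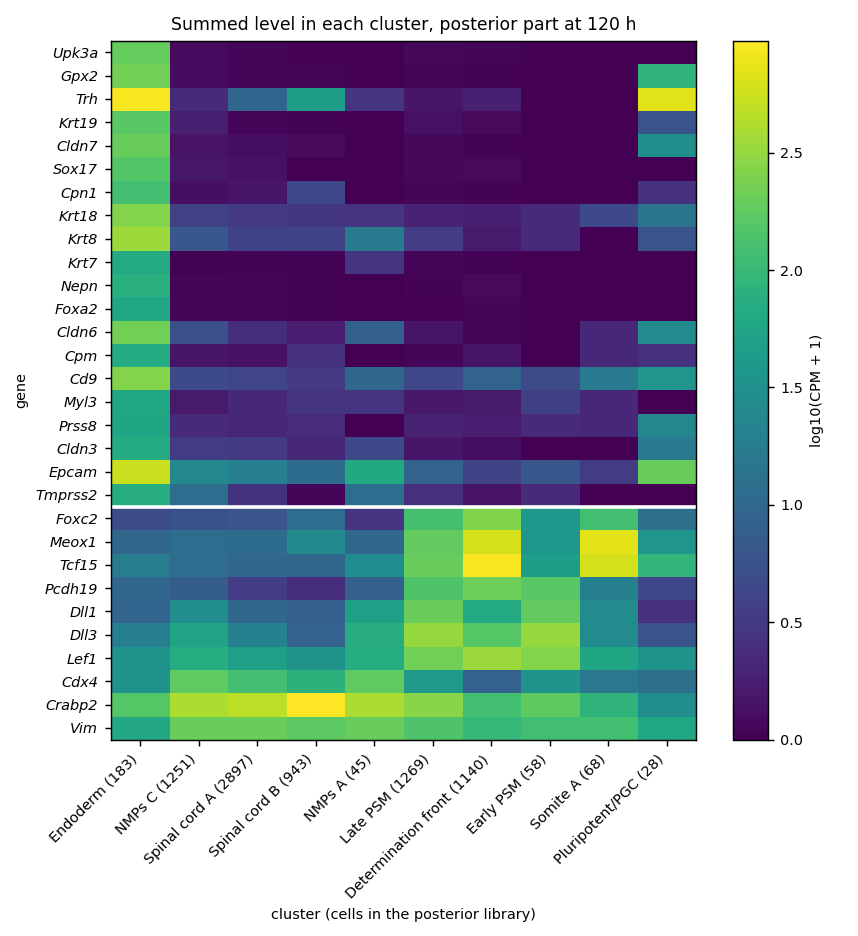
Summed level of the 20 genes with the largest and the 10 with the smallest ratio of Endoderm over other cells (rows, above and below the white line) in Endoderm and in the 9 other clusters of at least 28 cells of the posterior library (columns), as log10(CPM + 1) in colour. The upper genes are bright in the Endoderm column, and Trh, Epcam and Gpx2 are also bright in the Pluripotent/PGC column, at 699, 194 and 85.4 CPM.

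Over all genes, 5962 had at least 20 CPM in Endoderm or in other cells. Of these, 95 (1.59%) were at least 4-fold higher in Endoderm cells and 22 (0.369%) at least 4-fold lower. The 20 largest ratios among genes with at least 50 CPM in Endoderm cells took in the 9 markers and 11 further genes. These were Krt7, a keratin of ductal epithelia (64.4 CPM in Endoderm cells against 0.0790 in other cells), Nepn (77.2 against 0.0966), Foxa2 (58.0 against 0.0966), the claudin genes Cldn6 (221 against 1.64) and Cldn3 (66.3 against 1.60), the carboxypeptidase gene Cpm (67.4 against 0.562), the tetraspanin gene Cd9 (266 against 4.12), Myl3, a myosin light chain (58.0 against 0.992), the membrane-bound serine proteases Prss8 (57.2 against 1.20) and Tmprss2 (70.0 against 2.75), and Epcam, the epithelial cell adhesion molecule (550 against 15.2). Their ratios ran down to 25.5 for Tmprss2. With equal weight for each other cluster the log2 ratio of Foxa2 was 2.78 in place of 9.23, since the 1 cell of the cluster Somite B in this library held 1 Foxa2 UMI.

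**Figure D2:**
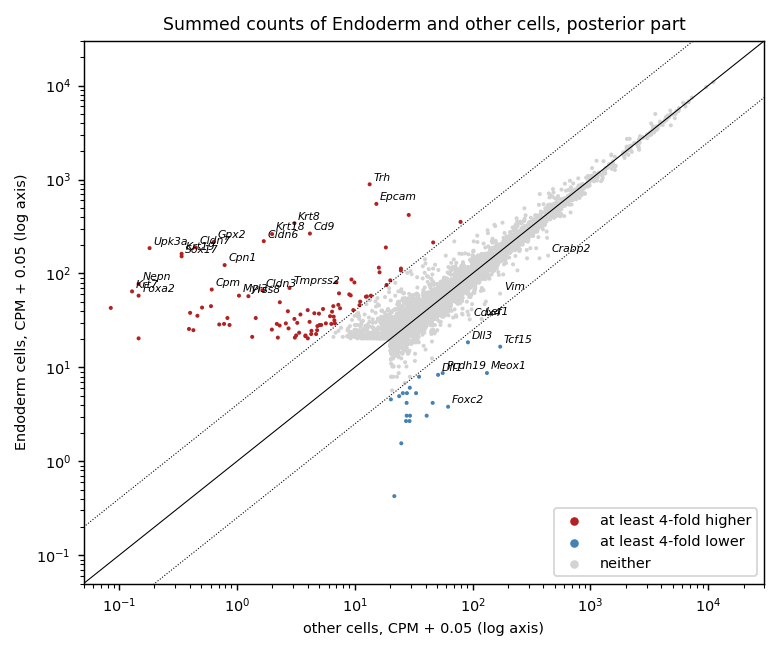
CPM of each of the 5962 genes with at least 20 CPM in either group, in Endoderm cells (vertical axis) and in other cells (horizontal axis) of the posterior library, both log axes with 0.05 CPM added. Solid line, equality; dotted lines, 4-fold. The 95 higher genes lie to the upper left, led by Trh at 889 CPM, and the 22 lower genes, among them Tcf15 and Meox1, lie below the band that holds most genes.

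Genes of epithelial junctions and keratins were largely on the higher side. Of the 30 in the table, 22 reached 20 CPM, and 18 were at least 4-fold higher in Endoderm cells and 0 lower. The shares over the 5962 genes that reached 20 CPM were 1.59% and 0.369%. The median log2 ratio of the 30, with 1 CPM added, was 3.04, against -0.02 over all 25595 genes. Their summed level was 2652 CPM in Endoderm cells and 204 CPM in other cells. The list holds 4 of the 9 cluster markers (Krt8, Krt18, Krt19, Cldn7). Without them 14 of 26 genes were higher and 0 lower, with a median log2 ratio of 2.71 and a summed level of 1696 CPM in Endoderm cells and 198 CPM in other cells. Epcam was detected in 171 of 183 Endoderm cells, Cldn6 in 159 and Krt8 in 158, so these were more widely shared among the cells than Sox17 (111). Besides the genes above, Cldn4 had 44.8 CPM in Endoderm cells against 0.553 in other cells, Crb3, an apical polarity gene, 43.3 against 0.457, Rab25, a GTPase of apical recycling, 38.0 against 0.351, and Esrp1, an epithelial splicing regulator, 35.4 against 0.413.

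E-cadherin, Cdh1, had 29.0 CPM in Endoderm cells and 0.729 CPM in other cells, a ratio of 39.8 (28.8 to 54.9). Dsp, which encodes desmoplakin, had 115 CPM in Endoderm cells and 16.0 CPM in other cells. Some junction genes of the list differed little, such as F11r, with a ratio of 1.12, and Pkp2, with 1.09. Of 13 mesenchymal and neural genes, of which 5 reached 20 CPM, 0 passed 4-fold in either direction. N-cadherin, Cdh2, had 56.1 CPM in Endoderm cells and 93.6 CPM in other cells, and Zeb2, a repressor of E-cadherin, 22.6 and 44.7 CPM. Vim, the intermediate filament of mesenchyme and of neural progenitors, had 61.0 CPM in Endoderm cells and 172 CPM in other cells.

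Among transcription factors of endoderm and gut, Sox17, Foxa2 and Klf5 passed 4-fold, 3 of 19 in the table, and 0 were lower. The shares over the 5962 genes were 1.59% and 0.369%, and 5 of the 19 reached 20 CPM. Sox17 is itself one of the 9 markers, and without it 2 of 18 were higher. The 19 had a median log2 ratio of 1.69 with 1 CPM added. Klf5, a factor of gut epithelium, had 26.0 CPM in Endoderm cells and 2.70 CPM in other cells. Sox9 had 52.0 and 13.4 CPM, a ratio of 3.88, just under the limit. Foxa1 and Foxa3 were below 20 CPM and yet far higher in the cluster. Foxa1, the partner of Foxa2, had 48 UMIs in Endoderm cells and 47 in the far more numerous other cells (18.1 against 0.413 CPM, ratio 43.8), and Foxa3 had 18 against 5 UMIs (ratio 154, 55.3 to 532). Gata4, Eomes and Ehf had 0 UMIs in Endoderm cells, which allows up to 1.13 CPM by the limit of 3 UMIs.

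The label was set against markers of neighbouring endoderm and midline tissues. Of 15 genes of extraembryonic visceral endoderm in the table, 0 reached 20 CPM in either group, so none could pass. Their summed level was 45.9 CPM in Endoderm cells and 38.6 CPM in other cells, and Ttr, Apoa2, Apob, Amn and Cubn were at 0 UMIs in Endoderm cells. Of 12 foregut genes, 1 reached 20 CPM and 0 passed. In Endoderm cells 9 of the 12 had a UMI, and Otx2, Pyy and Onecut1 were at 0. The summed level of the 12 was 132 CPM in Endoderm cells and 169 CPM in other cells, with a median log2 ratio of 0.04. Sox2, which also marks neural progenitors, had 107 CPM in Endoderm cells and 145 CPM in other cells. Of 14 genes of notochord and node, 3 reached 20 CPM and Foxa2 alone passed, against 1.59% of the 5962 genes. The 14 had a summed level of 266 CPM in Endoderm cells and 82.2 CPM in other cells, with a median log2 ratio of 0.81. Shh, also on this list, had 27 UMIs in Endoderm cells and 0 in other cells. The notochord factor Noto was at 0, while T, a factor of notochord and tailbud, had 109 CPM in Endoderm cells and 51.3 CPM in other cells, in 111 of 183 Endoderm cells.

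Markers of other tissues that the cluster could hold were examined in the same way. Of 8 genes of endothelium and blood, 0 reached 20 CPM in either group, with a summed level of 20.3 CPM in Endoderm cells and 14.5 CPM in other cells, and Kdr, Pecam1, Cdh5, Tal1 and Emcn were at 0 UMIs. Vwf, the von Willebrand factor gene of endothelium, was nevertheless one of the 95 higher genes, with 114 UMIs in Endoderm cells (42.9 CPM) and 4 in other cells. It was singled out after its values were seen. Of 9 genes of heart and lateral mesoderm, 0 reached 20 CPM, and Hand1, Hand2, Tbx5 and Foxf1 were at 0. Of 11 germ cell genes, 1 reached 20 CPM and 0 passed, and Dppa3 and Prdm14 were at 0, but their summed level was 66.3 CPM in Endoderm cells and 30.5 CPM in other cells. Of 12 pluripotency genes, Dppa5a alone passed, as lower, against 0.369% of the 5962 genes. Dppa5a had 3.01 CPM in Endoderm cells and 40.8 CPM in other cells. Of 11 genes of neuromesodermal progenitors, 9 reached 20 CPM and 0 passed, with a summed level of 1181 CPM in Endoderm cells and 967 CPM in other cells. Of 10 surface ectoderm genes, 0 reached 20 CPM in either group, so none could pass. Their summed level was 50.8 CPM in Endoderm cells and 12.3 CPM in other cells, and Dlx5, a homeobox factor of non-neural ectoderm, had 16.6 CPM in 23 of 183 Endoderm cells and 0.421 CPM in other cells, a ratio of 39.3 (25.5 to 60.5). Of 11 spinal cord genes, Irx3, a factor of the neural tube, alone passed, as lower, against 0.369% of the 5962 genes. Irx3 had 6.03 CPM in Endoderm cells and 29.3 CPM in other cells.

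Of the midgut and hindgut genes, which include posterior Hox genes, Nepn alone passed 4-fold, 1 of 17, against 1.59% of the 5962 genes. The median log2 ratio of the 17 was 0.17. Nepn had 205 UMIs in 32 of 183 Endoderm cells, with up to 31 UMIs in a cell, and 11 UMIs in 11 of 7704 other cells, a ratio of 799 (437 to 1626). Cdx2, the factor of the posterior gut and of axial progenitors, had 383 CPM in Endoderm cells and 277 CPM in other cells and was detected in 177 of 183 Endoderm cells. The level lay between those of NMPs C, at 481 CPM, and of Spinal cord B, at 136 CPM, and was close to that of Spinal cord A, at 379 CPM. Cdx4 had 32.4 CPM in Endoderm cells against 178 CPM in NMPs C and 122 CPM in Spinal cord A. Cdx1 had 24.8 CPM in Endoderm cells and 21.6 CPM in other cells.

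The Hox genes that reached 20 CPM in Endoderm cells lay in paralog groups 1 to 10, except group 5. The highest gene of group 5 was Hoxc5, at 11.3 CPM. Of 37 Hox genes in the table, 19 had at least 20 CPM in Endoderm cells and 0 passed 4-fold against all other cells. Hoxa7 was the highest, at 314 CPM, followed by Hoxb8 at 222, Hoxb9 at 154, Hoxc9 at 152 and Hoxc8 at 143 CPM. The cluster with the most similar profile, NMPs C (neuromesodermal progenitors of the posterior end), was used for a gene by gene comparison. The interval of the ratio of Endoderm over NMPs C lay below 1 for 16 of the 19, included 1 for Hoxa7 (314 against 297 CPM, 0.983 to 1.14) and lay above 1 for 2. These 2 were Hoxb8, at 222 CPM in Endoderm cells and 172 CPM in NMPs C, and Hoxb6, at 32.4 and 18.4 CPM, a ratio of 1.76 (1.37 to 2.24). The intervals cover counting error only, and the share of all genes whose interval lies below 1 is not given here. The count of 16 is therefore no result about the Hox genes as a set.

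Among the 19 genes with at least 20 CPM, the smallest ratios over NMPs C were those of Hoxb1, Hoxc10 and Hoxd4. Hoxb1 had 36.2 CPM in Endoderm cells and 103 CPM in NMPs C (ratio 0.352), and Hoxc10 had 36.2 and 97.0 CPM (ratio 0.373). Hoxd4 had 37.3 CPM in Endoderm cells and 86.1 CPM in NMPs C, with a gene model that overlaps Hoxd3. The rarer genes Hoxd1 and Hoxd3, at 7 and 10 UMIs in Endoderm cells, had ratios of 0.295 and 0.312, and the other group 10 genes Hoxa10 and Hoxd10 had ratios of 0.689 and 0.954. Hoxd9 had 91.9 and 128 CPM and Hoxa9 71.9 and 108 CPM. Hoxd11, singled out after its values were seen, ran the other way. It had 31 UMIs in 12 of 183 Endoderm cells, with up to 8 in a cell, and 22 UMIs in 1251 NMPs C cells, or 11.7 against 1.19 CPM, a ratio of 9.81 (5.50 to 17.8). A few cells thus carried its level. Hoxa6, Hoxb13, Hoxc11 and Hoxc13 were at 0 UMIs in Endoderm cells.

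**Figure D3:**
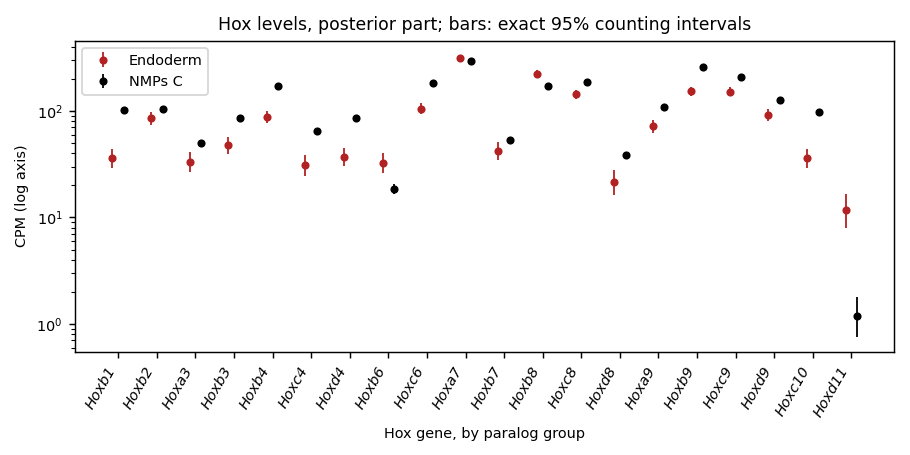
CPM (log axis) of the 19 Hox genes with at least 20 CPM in Endoderm cells, and of Hoxd11, by paralog group, in Endoderm cells (left point of each pair) and NMPs C cells (right point) of the posterior library, with exact 95% counting intervals. The Endoderm point is lower for most genes, near equal for Hoxa7 at 314 and 297 CPM, and higher for Hoxb6, Hoxb8 and Hoxd11.

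Of 16 genes of the hedgehog pathway, 4 reached 20 CPM and 0 passed 4-fold, and the median log2 ratio was 0.35. The ligands were rare but found in this cluster. Sonic hedgehog, Shh, had 27 UMIs in 24 of 183 Endoderm cells and 0 UMIs in 7704 other cells. The ratio was 386 with the other cells set to a floor of 3 UMIs, and its exact lower limit was 293. In replicate 1 at 96 h, the 2 Endoderm cells held 0 Shh UMIs and the other cells 6. Indian hedgehog, Ihh, had 17 UMIs in Endoderm cells and 8 in other cells (6.40 against 0.0702 CPM, ratio 91.1, 37.3 to 244). Both were named after their values were seen. Of the receptors and effectors, Ptch1, the hedgehog receptor that is itself a target of the pathway, had 79.5 CPM in Endoderm cells and 22.1 CPM in other cells, a ratio of 3.60 (3.12 to 4.15). Smo, the signal transducer, had a ratio of 1.34 and Gli3 0.889. Gli2 was lower, at 2.64 CPM in Endoderm cells and 9.51 CPM in other cells.

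Other pathways differed in a few members. Of the peptide and chemokine list, Trh and Apela passed, 2 of 11, against 1.59% of the 5962 genes. Trh is one of the 9 markers, and without it 1 of 10 passed. Apela, a peptide ligand of the apelin receptor that acts in endoderm of fish embryos, had 189 CPM in Endoderm cells and 18.3 CPM in other cells, a ratio of 10.3 (9.34 to 11.4), while its receptor gene Aplnr had 1.88 and 6.30 CPM. Of 21 Wnt pathway genes, 7 reached 20 CPM and 0 passed. The targets Sp5 and Axin2 had ratios of 2.58 and 1.26, Wnt5b, a ligand, had 60.6 CPM in Endoderm cells and 28.9 CPM in other cells, and Lgr5, an R-spondin receptor, had 19 UMIs in Endoderm cells (7.16 against 0.615 CPM).

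Of 21 genes of the Nodal, BMP and TGF-beta pathways, 6 reached 20 CPM and 0 passed. Id3, a BMP target, had 319 CPM in Endoderm cells and 156 CPM in other cells, and the ligands Tgfb2, Bmp7 and Bmp2 had ratios of 3.57, 3.23 and 9.25, the last at 13.6 CPM in Endoderm cells. Of 21 FGF pathway genes, 0 were higher and Fgf18 was lower, against 1.59% and 0.369% of the 5962 genes. Fgf18 had 2.64 CPM in Endoderm cells and 27.2 CPM in other cells. Fgf8, a ligand of the tailbud, had 288 CPM in Endoderm cells and 134 CPM in other cells, whereas the target Dusp6 had 53.1 and 52.1 CPM. Of 15 retinoic acid genes, 7 reached 20 CPM and 0 passed. The binding protein genes Crabp2 and Crabp1 had ratios of 0.353 and 0.386.

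Of 18 glutathione and oxidant defence genes, Gpx2 alone was at least 4-fold higher and 0 were lower, with a median log2 ratio of 0.02. Gpx2 is itself one of the 9 markers, and without it 0 of 17 were higher, against 1.59% of the 5962 genes. Gpx1 and Gpx4, the widely used peroxidases, had 282 and 195 CPM in Endoderm cells and 281 and 170 CPM in other cells. Prdx1 was the most abundant of the list, at 1745 CPM in Endoderm cells and 1617 CPM in other cells. Of 22 genes of the apical membrane and gut enzymes, Upk3a, Upk1a and Car4 passed and 0 were lower. The shares over the 5962 genes were 1.59% and 0.369%. Without Upk3a, one of the 9 markers, 2 of 21 passed. Upk1a, also a uroplakin, had 80.6 CPM in Endoderm cells against 6.95 in other cells, Car4, a membrane-bound carbonic anhydrase, 29.0 against 2.13, and Ezr, the ezrin of microvilli, 142 against 39.5. Genes of differentiated intestine were at 0 UMIs, among them Vil1, Anpep, Lct and Tff3, and so were the uroplakin genes Upk1b and Upk2.

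The 22 lower genes included markers of paraxial mesoderm. Of 10 somite genes, 4 were at least 4-fold lower (Tcf15, Meox1, Foxc2, Mesp2), and of 9 presomitic mesoderm genes 3 were (Tbx6, Dll1, Dll3). The share over the 5962 genes that reached 20 CPM was 0.369%, and 6 genes of each list reached it. Among genes with at least 50 CPM in other cells, the 10 smallest ratios began with Foxc2, a forkhead factor of somites, at 3.77 CPM in Endoderm cells and 62.0 CPM in other cells (ratio 0.0607). Next came Meox1 and Tcf15, homeobox and helix-loop-helix factors of the somite, at 8.66 and 16.6 CPM in Endoderm cells and 132 and 172 CPM in other cells. The Notch ligands Dll1 and Dll3 had ratios of 0.163 and 0.202 and the protocadherin gene Pcdh19 0.155. Lef1, a nuclear effector of Wnt signals, at 32.8 CPM in Endoderm cells and 120 CPM in other cells, Cdx4, Crabp2 and Vim completed the 10, with ratios of 0.274 to 0.356. The other cells are a mixture of clusters. Meox1 had 718 CPM in Somite A and 614 CPM in Determination front, but 10.3 CPM in Spinal cord A, close to the 8.66 CPM of Endoderm. The number of lower genes was 85 when each other cluster had equal weight and 44 when Endoderm cells with at least 5 of the 9 markers alone were used, whereas the number of higher genes was 82 and 140.

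Of the clusters with at least 28 cells in the posterior library, NMPs C (1251 cells) had the profile closest to Endoderm. Spearman's rho over 7198 genes that reached 20 CPM in at least 1 cluster was 0.940 for NMPs C, 0.936 for Spinal cord A, 0.920 for Spinal cord B, 0.910 for Late PSM (presomitic mesoderm) and 0.753 for Pluripotent/PGC. Genes are no replicates, so rho is a description, and the Pluripotent/PGC profile rests on 28 cells. Against NMPs C alone, 97 of 6015 genes (1.61%) were at least 4-fold higher in Endoderm cells and 12 (0.2%) at least 4-fold lower. Of the 97, 83 were also among the 95 higher against all other cells. The 12 lower genes included Tbx6, Cdx4, Fgf3 and Cyp26a1, the retinoic acid hydroxylase of the tailbud.

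Endoderm cells differed widely among themselves. With each cell thinned to 5000 UMIs, which left out 0 cells, a median of 5 of the 9 markers was detected per Endoderm cell and a median of 0 per other cell. At this depth 93 of 183 Endoderm cells (50.8%, Clopper-Pearson interval 43.3% to 58.3%) held at least 5 markers, against 0 of 7704 other cells, which allows a share of up to 0.0479%, and no other cell held more than 3. The share depends on depth. Without thinning it was 62.3% (114 of 183 cells), and at 3000 UMIs 40.4%. In no library did a cell of another cluster hold 5 or more markers. The number of markers at 5000 UMIs ran from 0 in 15 Endoderm cells to 9 in 6.

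**Figure D4:**
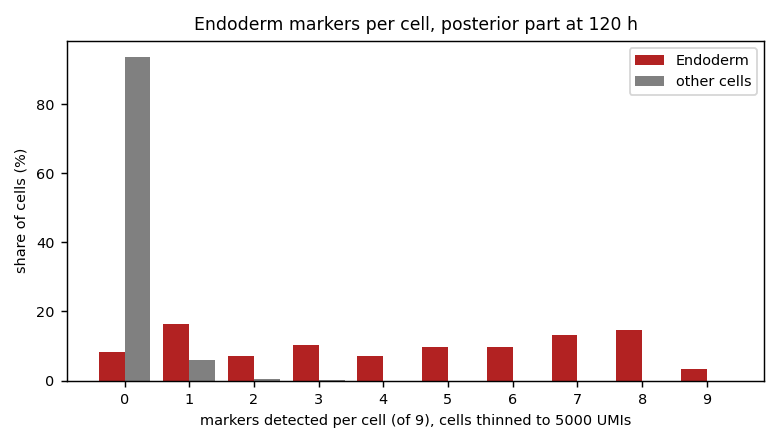
Share of cells (%) by the number of the 9 markers detected after thinning each cell to 5000 UMIs, for 183 Endoderm cells (red) and 7704 other cells (grey) of the posterior library. Endoderm cells spread from 0 to 9 markers, with a median of 5, and no other cell passes 3.

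The share of cells with a UMI was set beside that in Spinal cord A, a cluster named for another tissue, at the same thinned depth (median depths before thinning 12841 and 13867 UMIs). Upk3a was detected in 48.1% of Endoderm cells and 0.138% of Spinal cord A cells, Sox17 in 44.3% and 0.311%, Foxa2 in 21.3% and 0.0345%, and Nepn in 12.6% and 0 of 2897 cells. Krt8 and Epcam were the most widely detected, in 69.4% and 82.0% of Endoderm cells and in 1.79% and 8.15% of Spinal cord A cells. Sox2 was detected in 30.6% of Endoderm cells and 60.2% of Spinal cord A cells, and Cdx2 in 84.7% and 81.2%. Upk3a, Sox17, Foxa2, Nepn, Krt8 and Epcam thus lay above their shares in Spinal cord A, Cdx2 lay near its share and Sox2 below. Upk3a, Sox17 and Krt8 are cluster markers. The clusters had been made from these transcripts, so this is a description with no test. Per cell and without thinning, the lowest, median and highest level of Trh was 0, 302 and 6977 CPM, and that of Krt8 was 0, 273 and 2965 CPM.

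To see what the cells with few markers held, the 114 Endoderm cells with at least 5 markers (unthinned) were set beside the 69 with fewer. Median depth was 12614 and 12950 UMIs, and 8 cells lay at 5 markers and 13 at 4. The markers themselves, and the clustering, fix part of this comparison, so it is given with no test. Of 6133 genes with at least 20 CPM in either subset, 56 (0.913%) were at least 4-fold higher in the cells with 5 or more markers and 25 (0.408%) at least 4-fold lower. Foxa2 had 88.9 CPM in cells with 5 or more markers and 5.10 CPM in cells with fewer, Nepn 122 and 1.02 CPM, Krt7 99.1 and 5.10 CPM, Cd9 405 and 27.6 CPM, and Vwf 65.6 and 4.08 CPM. Shh had 27 UMIs in 24 of the 114 cells and 0 UMIs in the 69.

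The cells with fewer markers held epithelial transcripts all the same. Epcam had 648 CPM in cells with 5 or more markers and 384 CPM in cells with fewer, against 15.2 CPM in other cells, and Krt8 had 408 and 230 CPM, against 3.03 CPM. Dsp (114 and 117 CPM, ratio 0.971, 0.767 to 1.23) and Esrp1 (37.0 and 32.7 CPM, ratio 1.13, 0.728 to 1.79) had intervals that included 1. Cldn3 was lower in the cells with 5 or more markers, at 43.0 CPM against 106 CPM, and so was Upk1a, at 47.1 against 138 CPM. Cldn6 had 280 and 119 CPM and Cldn4 51.3 and 33.7 CPM. Not all epithelial genes were shared to this degree. Cldn7, one of the 9 markers, had 279 CPM in cells with 5 or more markers and 36.7 CPM in cells with fewer, Sox17 227 and 23.5 CPM, and Gpx2 338 and 9.19 CPM.

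Surface ectoderm genes lay on the side of the cells with fewer markers. Of 10 such genes in the table, 3 were at least 4-fold lower in cells with 5 or more markers and 0 higher. The shares over the 6133 genes that reached 20 CPM in either subset were 0.408% and 0.913%. Dlx5 had 6.56 CPM in cells with 5 or more markers (5 cells with a UMI) and 33.7 CPM in cells with fewer (18 of 69 cells), against 0.421 CPM in other cells. Tfap2c, the factor AP-2 gamma of surface ectoderm and germ cells, had 2.39 and 21.4 CPM, against 1.04 CPM in other cells, and Grhl3, a grainyhead factor of surface ectoderm, 5.37 and 29.6 CPM, against 5.25 CPM. The summed level of the 10 genes was 22.1 CPM in cells with 5 or more markers, 100 CPM in cells with fewer and 12.3 CPM in other cells. Krt5, a keratin of stratified epithelium, was at 0 UMIs in all Endoderm cells.

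Of 11 genes of neuromesodermal progenitors, Nkx1-2 alone was at least 4-fold lower in cells with 5 or more markers, and of 11 spinal cord genes 0 were. The share over the 6133 genes that reached 20 CPM in either subset was 0.408%. The summed level of the progenitor genes was 1055 CPM in cells with 5 or more markers, 1396 CPM in cells with fewer and 967 CPM in other cells. Nkx1-2 had 8.95 CPM in cells with 5 or more markers and 78.6 CPM in cells with fewer, near the 72.9 CPM of other cells, and Hoxb1 had 8.95 and 82.7 CPM, against 92.4 CPM in other cells. Crabp2 had 53.7 and 328 CPM, against 438 CPM, and Sox2 68.0 and 174 CPM, against 145 CPM. The summed level of 11 spinal cord genes was 212 CPM in cells with 5 or more markers, 544 CPM in cells with fewer and 533 CPM in other cells. Hoxc10 had 20.3 and 63.3 CPM and Hoxb9 103 and 240 CPM, while Hoxd9 had 110 and 61.2 CPM. The deficits of Hoxb1 and Hoxc10 against NMPs C were therefore larger in cells with 5 or more markers. Cdx2 had 359 and 424 CPM, a ratio of 0.847 (0.746 to 0.962). What part these other cells had in the profile of the cells with fewer markers, through doublets or free RNA, was not tested.

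**Figure D5:**
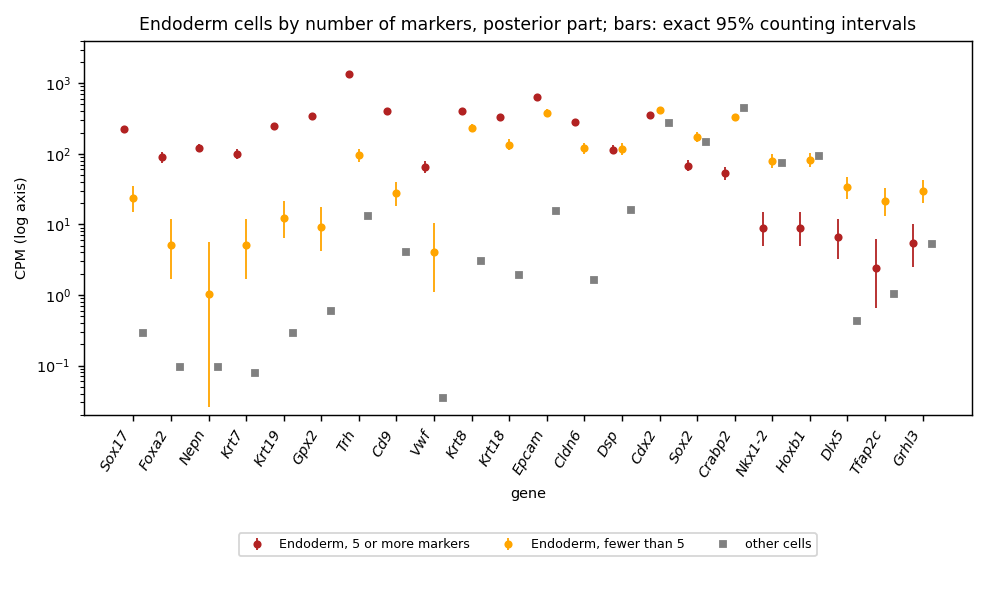
CPM (log axis) of 22 genes in the 114 Endoderm cells with 5 or more of the 9 markers (red), the 69 with fewer (orange) and the 7704 other cells (grey squares) of the posterior library, with exact 95% counting intervals for the Endoderm subsets. Sox17 to Vwf are far apart in the subsets, Krt8 to Cdx2 are closer, and for Sox2 to Grhl3 the cells with fewer markers are the higher.

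Nepn divided the cells with 5 or more markers, a split that was chosen after its values were seen. Of these 114 cells, 31 held a Nepn UMI (12 of them a lone UMI) and 83 held none, with median depths of 14129 and 12210 UMIs. Both had like levels of Sox17 (245 CPM with Nepn and 220 CPM without, ratio 1.12, 0.895 to 1.39) and of Cdx2 (361 and 358 CPM) and Hoxa7 (279 and 278 CPM). Some genes of the tailbud were lower with Nepn and others were not. T had 49.1 CPM in cells with Nepn and 164 CPM in cells without, Fgf8 161 and 349 CPM, and Cdx1 5.89 and 28.3 CPM. Cdx4 had a ratio of 1.01, Wnt5a 0.977, Hoxc10 0.954 and Fgf17 1.19, with intervals that included 1. Hoxd11 had 1 UMI in the 31 cells with Nepn and 24 UMIs in the 83 without. Sox9 had 23.6 and 64.3 CPM, and Hoxd9 76.6 and 124 CPM.

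Genes of gut and epithelium also went both ways. Upk1a had 102 CPM in cells with Nepn and 23.2 CPM in cells without, carried by 8 and 13 cells, and Krt19 had 371 and 196 CPM. Foxa3 had 11 UMIs in cells with Nepn and 7 UMIs in cells without. Prdm1 had 33.4 and 9.43 CPM (ratio 3.54, 1.56 to 8.36). Shh had 14 UMIs in the 31 cells with Nepn and 13 UMIs in the 83 without (ratio 2.47, 1.08 to 5.70), and Ptch1 had a ratio of 1.42 (1.03 to 1.93). Foxa2 had a ratio of 0.840 (0.570 to 1.22), Upk3a 0.887 (0.718 to 1.09) and Klf5 0.971 (0.480 to 1.87), with intervals that included 1, and Gpx2 had 314 and 349 CPM. These intervals cover the counting of UMIs and leave out the spread between cells.

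The few Endoderm cells of the other libraries held transcripts of many of the 95 higher genes. In the 7 cells of replicate 2 at 120 h, 62 of the 95 higher genes had a ratio of at least 4 over the other cells of that library, against 1.66% of the 5962 genes. In the 11 cells of replicate 2 at 96 h, 61 of the 95 did, against 1.93%. All cells were clustered together and the 95 had been picked as high in Endoderm cells, so this is no independent test. A UMI was found for 77 of the 95 in the 7 cells and for 89 in the 11 cells. A gene that is rare in other cells can reach a ratio of 4 with 1 UMI here. The shares over the 5962 genes are therefore no like background for the 95. Of the 22 lower genes, 12 and 14 had a ratio of at most 0.25 in these libraries, against 6.22% and 6.34% of the 5962 genes, counting a gene with no UMI in Endoderm cells as lower. The 7 cells held 80961 UMIs and the 11 cells 95185 UMIs, so that 1 UMI stands for over 10 CPM.

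Trh was the most abundant marker in replicate 2 of both times. The lone Endoderm cell of the anterior part held 0 Trh UMIs, and that of replicate 1 at 120 h held 4, against 5 of Krt19. Trh had 803 CPM in the 7 cells of replicate 2 at 120 h (65 UMIs in 2 cells) and 3488 CPM in the 11 cells of replicate 2 at 96 h (332 UMIs in 5 cells). The other cells of these 2 libraries had at most 19.4 CPM. Cdh1 had 2 UMIs in the 7 cells at 120 h and 23 UMIs in 8 of the 11 cells at 96 h (24.7 and 242 CPM). Sox17 had 37.1 CPM in the 7 cells at 120 h and 168 CPM in the 11 cells at 96 h, and Krt8 235 and 494 CPM. Nepn had 10 UMIs in 1 of the 7 cells at 120 h and 0 UMIs in the 11 cells at 96 h. Hoxd9 had 2 and 0 UMIs and Hoxc10 0 and 0, where the other cells had 43.3 CPM of Hoxd9 at 120 h and 4.59 CPM at 96 h. With 1 library of at least 5 cells at 96 h, no test between times was run.

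Marker numbers differed from cell to cell in these libraries too. The 7 cells of replicate 2 at 120 h held 8, 2, 1, 2, 5, 1 and 2 of the 9 markers, and the 11 cells of replicate 2 at 96 h held 6, 2, 6, 6, 5, 0, 3, 3, 4, 5 and 6. The 2 cells of replicate 1 at 96 h held 4 and 8. The lone Endoderm cell of the anterior part held 7 markers, 38 Nepn UMIs and 29939 UMIs in all, 2.18 times the mean of its library. The lone cell of replicate 1 at 120 h held 6 markers, 9 Foxa2 UMIs and 31300 UMIs, 1.85 times the mean of its library. In the posterior library 22 of 183 Endoderm cells were above 1.5 times the library mean. Without cells above that limit 96 genes were at least 4-fold higher, 90 of them among the 95.

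By the deposited cell cycle phases, 43.2% of the posterior Endoderm cells were in G1 (interval 35.9% to 50.7%), 20.2% in S and 36.6% in G2/M. The other cells of that library had 37.8% in G1, 23.1% in S and 39.1% in G2/M, each within the interval of the Endoderm share. Phase calls were made by the authors from scores per cell, and no statement on cycling is drawn from them.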

How the data were processed

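Single cells of wild-type mouse stembryos had been sequenced on the 10x platform (V3 or V3.1 chemistry) in 6 libraries. The authors aligned reads to mm10 with a modified Ensembl annotation in Cell Ranger 6.0 and deposited raw UMI counts per gene and cell. Per the study's methods, cells with extreme UMI totals for their library (the guard against doublets) or mitochondrial shares were removed in Seurat 4.0.2, and the cells were merged and clustered after regression of mitochondrial share and cell cycle. The authors also deposited, per cell, the mitochondrial share as a percent, S and G2/M scores, phase, batch, chemistry and cluster name. The table held 25595 genes and 26968 cells, each with a total equal to the annotated one. The number of columns left aside was 0.

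Counts were summed over cells and given as CPM with exact Poisson intervals, and ratios with exact conditional binomial intervals (95%). A group with 0 UMIs was set to 3 UMIs over the group. The call rule was tested on simulated data. Cells were thinned by seeded draws without replacement. No doublet caller was run. The planned test of Endoderm cells at 120 h over 96 h needed 2 sums of at least 5 cells per time and was not run. Named genes were the 9 markers, the 20 largest and 10 smallest ratios among genes with at least 50 CPM, up to 6 members per list (those past 4-fold or with the highest CPM), and Hox genes with at least 20 CPM. List members named beyond this rule, those at 0 UMIs, and genes that describe subsets of cells were chosen after their values were seen. The members, the 26 lists and the tests were chosen with earlier results of these data known. Whether replicates were separate cultures is not stated, so p-values measure the spread between samples. The gene positions that overlap and the upstream start of Nepn were read from GENCODE on GRCm38. Python 3.11.15, numpy 2.4.6, scipy 1.17.1, pandas 2.3.3 and matplotlib 3.10.9 were used.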

Additional observations from a re-analysis of the deposited data

How the results depend on the processing

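The number of genes at least 4-fold higher in Endoderm cells of the posterior library (95) moved to 266 with a minimum of 5 CPM, 40 with a minimum of 50 CPM and 227 at 2-fold, by the construction of these limits. It was 82 to 140 under the other settings. The number of lower genes (22) moved to 62 and 6 under those minimums, to 65 at 2-fold, to 44 for Endoderm cells with at least 5 of the 9 markers and to 85 with each other cluster weighted equally. Leaving out the Pluripotent/PGC cells, an alternative chosen after seeing the data, gave 96 and 21. Of the 30 named genes, 0 changed direction over 5 settings, and 53 of 150 values moved outside their counting interval. The share of cells with at least 5 markers (50.8% at 5000 UMIs) moved to 62.3% without thinning and 40.4% at 3000 UMIs. The difference in the share of Endoderm cells, 0.384 percentage points at 120 h minus 96 h, was -0.0872 in the whole libraries alone and -0.0872 to 0.680 with a sample left out, and none of these designs could reach p of 0.05. With the whole libraries paired by replicate number, whose members share a batch (a replicate block added after seeing the data), the difference was also -0.0872, lower at 120 h in 2 of 2 pairs, with p = 0.5 by exact sign flips, the smallest they can give. For the test of genes between times no paired analysis was possible because sums of at least 5 Endoderm cells at both times exist for 1 replicate number alone, and its other settings were not run for the same reason. Depth limits the libraries with 1 to 11 Endoderm cells most.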
